A study of Rattus norvegicus with 3 samples.

Results

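Testis RNA of young rats taken on postnatal day 10 was compared with testis RNA taken on day 8. Of the 3 arrays of the study, 1 each for days 6, 8 and 10, the comparison used 2, and every one of the 26419 probe sets was a member except the random-sequence control. The log2 intensity on day 8 was subtracted from that on day 10 for each probe set, so a negative difference is a lower level on day 10. Day 6 values are given beside them and entered no count. Both groups were untreated Wistar-Imamichi rats born to naturally mated parents, with the day of birth counted as day 1, and nothing but age set them apart in the labels. Testes were collected from each age separately, and how many animals gave RNA to an array is not stated. Each array therefore carries an age, an animal or group of animals and a hybridisation that cannot be told apart. Without replicates, the differences carry no error between animals and no test was run.

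In these days the seminiferous cords hold Sertoli cells, which still divide, and gonocytes that have become spermatogonia, some of which begin to differentiate. Outside the cords lie peritubular myoid cells, fetal-type Leydig cells that make androgen and are gradually replaced by an adult population, vessels and macrophages. Sertoli cells support the spermatogonial stem cells with secreted factors and later seal the cords with junctions, the blood-testis barrier, as the first germ cells enter meiosis.

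Markers of the labelled tissue were present. All 6 Sertoli cell markers on the array (Amh, Inha, Clu, Fshr, Wt1 and Gata4) were above the floor on both days, and so were 6 of 7 Leydig cell markers, 4 of 4 peritubular markers and, of 5 germ cell markers, 5 on day 8 and 4 on day 10. The floor of an array, below which levels were not read, was its median, a log2 intensity of 7.79 on day 8 and 7.67 on day 10. That lay above the 95th percentile of 1239 olfactory and vomeronasal receptors (5.60 and 6.11). The luteinising hormone receptor Lhcgr, which marks Leydig cells, was under the floor on both days (7.03 and 5.23). In whole testis, fewer cells of a type and less RNA per cell cannot be told apart.

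Across the array, more probe sets were lower on day 10 than higher. A probe set is called tested when its level reached the floor on either day, although no statistical test was run, and this held for 14058. Of these, 1203 (8.56%) had a level on day 10 of 2-fold or more above day 8 and 1936 (13.8%) 2-fold or more below it, together 22.3%. Among named genes, 230 of 5488 (4.19%) were higher and 638 (11.6%) lower, 15.8% in all, and these shares are the background for the gene groups below. Over the tested probe sets the median difference was -0.012, with quartiles of -0.58 and 0.44, and over the tested named genes the median was -0.04.

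The balance of the calls depended on scaling. Lower probe sets made up 61.7% of those past 2-fold as deposited and 51.5% after each array was centred on its median (1494 higher and 1588 lower), a step that moved every difference up by 0.12. A probe set above the floor on 1 day only entered through its brighter day, so its difference is partly fixed by the choice. Of the higher calls 490 (40.7%) were above the floor on day 10 only, and of the lower calls 613 (31.7%) on day 8 only. Above the floor on both days, 713 were higher and 1323 lower. Just inside the threshold, from 2-fold to 2.2-fold, lay 251 higher and 379 lower probe sets, and just outside it, from 1.8-fold to 2-fold, 368 and 492.

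**Figure D1:**
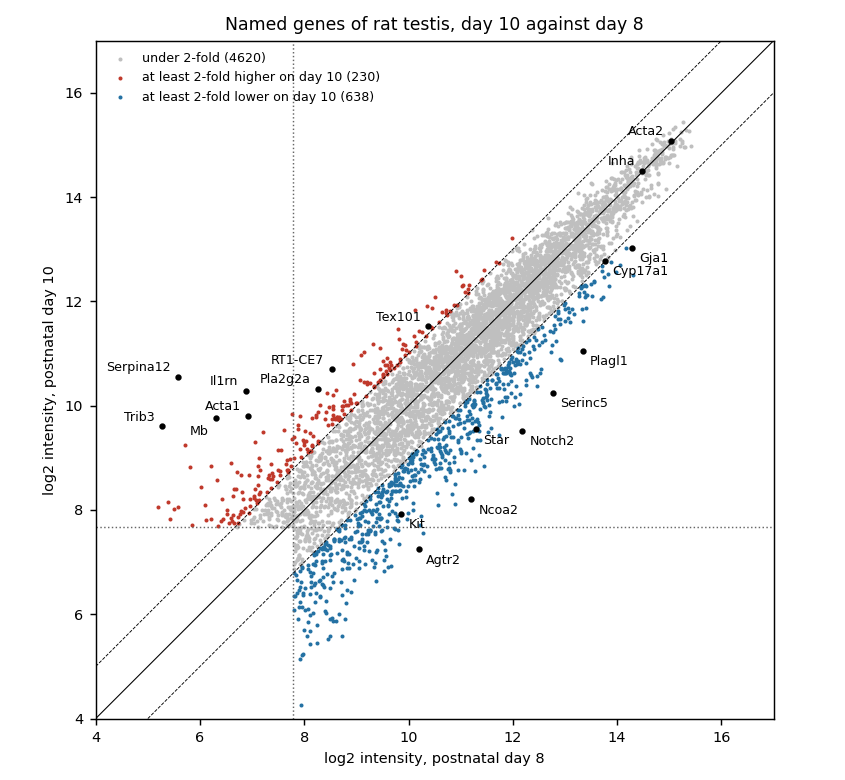
Log2 intensity on day 8 (horizontal axis) against day 10 (vertical axis) for the 5488 named genes that reached the floor on either day; each point is a gene, the solid line marks equal levels, dashed lines mark 2-fold and dotted lines each array's floor. Blue points (638, at least 2-fold lower on day 10) outnumber red points (230, higher), and both kinds thin out towards bright levels, where Inha and Acta2 lie on the line.

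Several of the 15 largest differences on the lower side were in signalling genes. Ncoa2, a coactivator of nuclear receptors, had a log2 intensity of 10.59 on day 6, 11.20 on day 8 and 8.20 on day 10, 8.01-fold lower on day 10 than on day 8. Notch2, a receptor through which neighbouring cells signal, had 11.72, 12.18 and 9.52 (6.30-fold lower). Ptch1, the receptor of hedgehog ligands, had 11.04, 11.44 and 8.84 (6.08-fold lower). In all of these day 10 was below both earlier days, and day 8 was slightly above day 6. The same order held for Dstyk, a protein kinase, with 10.66, 10.90 and 8.12 (6.86-fold lower), and for Gab2, an adaptor of receptor tyrosine kinases, with 11.18, 11.27 and 8.74 (5.79-fold lower). Tub, a phosphoinositide-binding protein, had 9.95 and 10.27 on the earlier days and lay under the floor on day 10 (7.55), so it was at least 6.07-fold lower. Agtr2, an angiotensin II receptor abundant in fetal tissues, was stepwise lower, with 11.40, 10.20 and 7.25, and at least 5.77-fold lower on day 10 than on day 8.

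Metabolic and membrane genes were also among these 15. Serinc5, a membrane protein of the serine incorporator family, had 12.21, 12.77 and 10.24 on days 6, 8 and 10 (5.77-fold lower). Prps2, which makes the sugar phosphate used for nucleotides, was 5.73-fold lower, and Cpt1a, which admits fatty acids to mitochondria, had 11.72, 11.73 and 9.44 (4.90-fold lower). Pip5k1a, a lipid kinase of the phosphoinositide pathway, was 5.21-fold lower, and St6gal1, which adds sialic acid to glycans, 4.96-fold lower. The zinc finger factor Zkscan1, the PDZ protein Pdzd2 and the scaffold striatin (Strn) were 5.68-fold, 5.52-fold and 5.13-fold lower.

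On the higher side the largest difference was that of Serpina12, a serpin known as vaspin. It was under the floor on day 6 (5.44) and day 8 (5.58) and reached 10.56 on day 10, at least 6.81-fold higher. Il1rn, the secreted antagonist of the interleukin-1 receptor, had 9.12, 6.87 and 10.29 on the 3 days, at least 5.65-fold higher than on day 8. Day 8 was the lowest of the 3 arrays for Il1rn, as it also was for the class I histocompatibility gene RT1-CE7 (9.63, 8.52 and 10.70, 4.51-fold higher) and for Pla2g2a, a secreted phospholipase (8.95, 8.26 and 10.33, 4.20-fold higher). Trib3, a pseudokinase of the stress response, was likewise lowest on day 8, with 6.90, 5.26 and 9.61, and at least 3.53-fold higher on day 10.

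Muscle and mesothelial genes stood beside them. Sln, a regulator of the calcium pump in muscle, had 8.54, 7.76 and 9.84 on days 6, 8 and 10 (at least 4.15-fold higher on day 10 than on day 8). Acta1, skeletal muscle actin, and Mb, myoglobin, were at least 4.06-fold and 3.91-fold higher, and Tnnc2, the calcium sensor of fast muscle fibres, was 3.70-fold higher. Msln, mesothelin, had 9.62, 9.09 and 10.96 (3.68-fold higher). Of the remaining 5 of the 15 largest differences on the higher side, Prss45, a serine protease, had 8.72, 9.15 and 11.03 (3.68-fold higher) and Hpca, the neuronal calcium sensor hippocalcin, 10.13, 9.31 and 11.18 (3.65-fold higher). Asb12, Tmem140 and Ubxn11 were 3.65-fold, 3.51-fold and 3.36-fold higher.

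**Figure D2:**
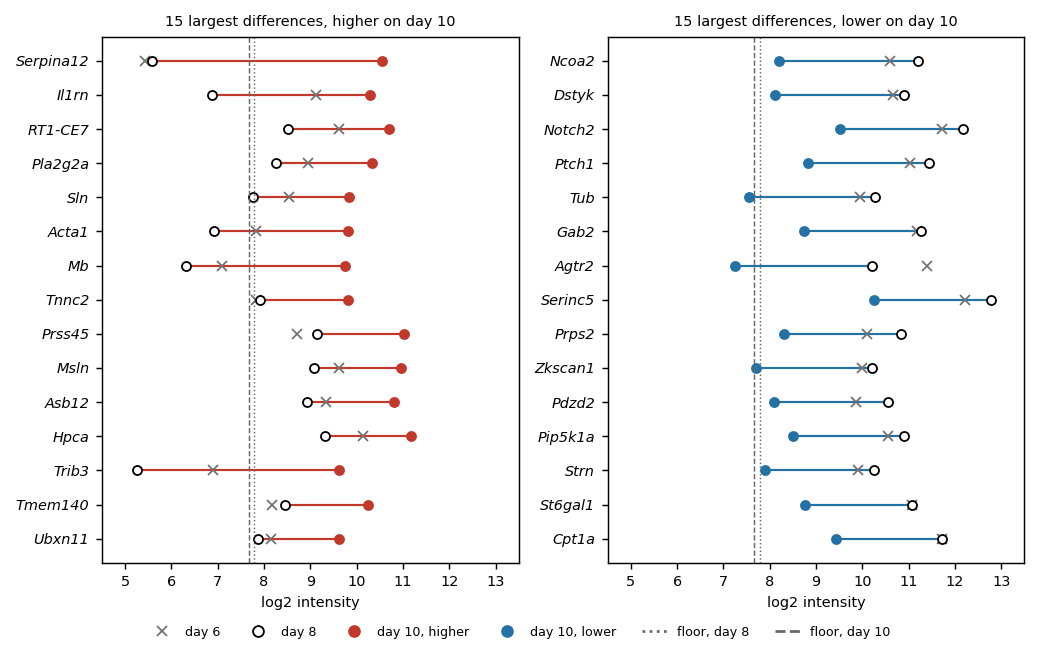
Log2 intensity on day 6 (grey crosses), day 8 (open circles) and day 10 (filled circles) of the 15 named genes with the largest difference in each direction, ranked after values were raised to the floor; vertical lines mark the floors of days 8 and 10. In all 15 lower genes days 6 and 8 both lie to the right of day 10, and several higher genes (Il1rn, RT1-CE7, Trib3, Acta1) have day 8 on the left of day 6.

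The annotated promoters of the higher and the lower genes differed in base composition. To show what such promoters look like, the 100 bases before the annotated start are printed for the 4 genes with the largest difference on the higher side and the 4 on the lower side that have an entry in RefSeq's promoter table (assembly GRCr8, 5′ to 3′ on the gene's strand). Capitals mark matches on either strand to 2 motifs. TATAAA is bound by the general transcription machinery shortly before many start sites. GGGCGG is the core of the sites of Sp1-type factors. The higher genes were Serpina12 (chr6:128732050-128732149, minus strand), Il1rn (chr3:27520222-27520321, plus strand), Pla2g2a (chr5:156359625-156359724, plus strand) and Acta1 (chr19:68784195-68784294, minus strand). The lower genes were Dstyk (chr13:46409312-46409411, plus strand), Notch2 (chr2:188299236-188299335, plus strand), Ptch1 (chr17:1555471-1555570, plus strand) and Tub (chr1:172443242-172443341, plus strand).
Serpina12: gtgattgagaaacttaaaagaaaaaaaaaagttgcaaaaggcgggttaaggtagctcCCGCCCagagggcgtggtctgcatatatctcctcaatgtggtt
Il1rn: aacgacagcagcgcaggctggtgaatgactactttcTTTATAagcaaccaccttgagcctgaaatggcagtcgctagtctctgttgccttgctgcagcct
Pla2g2a: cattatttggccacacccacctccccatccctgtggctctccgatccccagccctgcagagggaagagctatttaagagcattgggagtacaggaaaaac
Acta1: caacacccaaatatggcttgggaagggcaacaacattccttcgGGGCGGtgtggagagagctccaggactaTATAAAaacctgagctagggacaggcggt
Dstyk: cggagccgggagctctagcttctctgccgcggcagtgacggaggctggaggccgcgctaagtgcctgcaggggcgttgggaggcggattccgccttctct
Notch2: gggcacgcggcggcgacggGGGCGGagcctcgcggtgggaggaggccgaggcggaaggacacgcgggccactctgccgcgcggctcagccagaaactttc
Ptch1: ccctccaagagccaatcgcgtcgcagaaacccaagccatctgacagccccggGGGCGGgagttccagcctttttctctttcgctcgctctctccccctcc
Tub: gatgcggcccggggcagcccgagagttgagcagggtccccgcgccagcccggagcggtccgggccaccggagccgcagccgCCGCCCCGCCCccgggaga

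In these windows TATAAA was found before Il1rn, on the opposite strand, and before Acta1. GGGCGG was found before Serpina12, Acta1, Notch2, Ptch1 and Tub. Over the 300-base promoters of all tested genes with an entry (4302), 168 were of higher genes and 481 of lower genes. TATAAA on either strand was present in 17.9% of the promoters of higher genes, 5.20% of those of lower genes and 6.88% of all tested. GGGCGG was present in 42.9%, 63.4% and 63.9%, and the median GC content was 55.3%, 63.7% and 61.0%. The median number of CpG dinucleotides was 11 in the promoters of higher genes, 23 in those of lower genes and 21 in all tested. Other motifs were counted too. In the same order, CCAAT was present in 45.2%, 38.9% and 39.2%, and CANNTG (N is any base) in 67.9%, 59.9% and 61.8%. TGACGTCA was present in 1.19%, 1.66% and 3.14%, AAGGTCA in 3.57%, 3.12% and 3.07%, and the CArG motif in 1.19%, 1.66% and 1.02%. Over all 24206 rat promoters in the table, TATAAA was present in 14.3% and GGGCGG in 35.9%, and the median number of CpG dinucleotides was 8. These are letter matches and do not show that a factor binds.

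Receptors and transducers of cell-to-cell signalling were among the lower genes. Of 24 hedgehog, Notch and Wnt genes on the array 18 were tested, and 6 of them were 2-fold or more lower on day 10 and 0 higher, against 11.6% lower and 4.19% higher among all named genes. Their median difference was -0.77, against -0.04 for all named genes. Smo, the transducer downstream of Ptch1, had a log2 intensity of 12.42 on day 6, 12.91 on day 8 and 11.56 on day 10 (2.56-fold lower). The Wnt ligand Wnt5a had 9.99, 10.13 and 8.58 (2.92-fold lower) and Apc, a brake on Wnt signalling, was 2.32-fold lower. These lower genes belong to different pathways, Ptch1 and Smo to hedgehog and Wnt5a and Apc to Wnt. The Notch target gene Hes1 differed by 0.30. The activity of each pathway was not tested. Smo, Wnt5a, Apc and Hes1 lie outside the naming rule and were picked after their values were seen, as were further list members marked in the processing notes.

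The TGF-beta superfamily, which includes the Sertoli cell hormones AMH and inhibin, had 34 tested members (of 41 on the array). The calls were 9 lower and 0 higher, with a median of -0.55. The largest positive difference lay just short of 2-fold, and 2 members were higher and 6 lower once the span trend was subtracted, a smooth fit of the difference on the length of each gene in the genome. Over the 28 members above the floor on both days 6 were lower and the median was -0.44. The intracellular mediators Smad3 (10.28, 10.72 and 8.58 on days 6, 8 and 10) and Smad4 (12.25, 12.35 and 10.60) were 4.40-fold and 3.38-fold lower. Among receptors, Tgfbr1 was at least 3.22-fold and Tgfbr3 at least 2.23-fold lower. The hormone genes differed less. Amh, which removes the Müllerian ducts, had 11.32, 11.15 and 10.60, a difference of -0.55, and Inha, the inhibin alpha subunit, had 14.21, 14.48 and 14.51. The targets Id1 and Id2, inhibitors of differentiation factors, had positive differences of 0.80 and 0.86, short of 2-fold.

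Most lower calls in growth factor systems were of genes above the floor on day 8 only, which entered through their brighter day. Of 34 tested IGF, FGF, PDGF, VEGF and EGF genes (of 47 on the array), the calls were 11 lower and 2 higher, with a median of -0.62. Over the 23 above the floor on both days only 2 were lower and 1 higher, with a median of -0.14. Met, the receptor of hepatocyte growth factor, had 9.86, 9.96 and 7.83 on days 6, 8 and 10 (4.40-fold lower). Igfbp5, an IGF binding protein, had 9.53, 9.82 and 7.34 (at least 4.45-fold lower). In both genes days 6 and 8 were close and day 10 stood below them. On the higher side stood Hbegf, an EGF receptor ligand (8.51, 8.00 and 9.30, 2.46-fold higher), and Fgf2 (7.82, 6.95 and 8.68, at least 1.85-fold higher), each lowest on day 8.

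Nuclear receptors and their coactivators held 6 of 24 tested members (35 on the array) at least 2-fold lower and 0 higher, with a median of -0.46. Over the 18 above the floor on both days 3 were lower and the median was -0.34. Besides Ncoa2, the retinoid X receptor Rxra had 9.55, 10.02 and 8.55 (2.78-fold lower). The retinoid list shared Rxra and held 3 lower and 1 higher of 15 tested members (21 on the array), with a median of -0.44. Cyp26b1, the enzyme that breaks down retinoic acid and holds back meiosis in the mouse fetal testis, had 8.77, 9.10 and 7.44 (at least 2.70-fold lower). Aldh1a2, a dehydrogenase that produces retinoic acid, had 9.93, 9.62 and 8.49 (2.19-fold lower), whereas Adh1c, an alcohol dehydrogenase that can oxidise retinol, had 7.79, 8.22 and 9.81 (3.02-fold higher). In the angiotensin list, Agtr2 was the only one of 7 tested members (11 on the array) past 2-fold, and Agtr1a and Ace, the other receptor and the converting enzyme, had positive differences of 0.66 and 0.49.

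**Figure D3:**
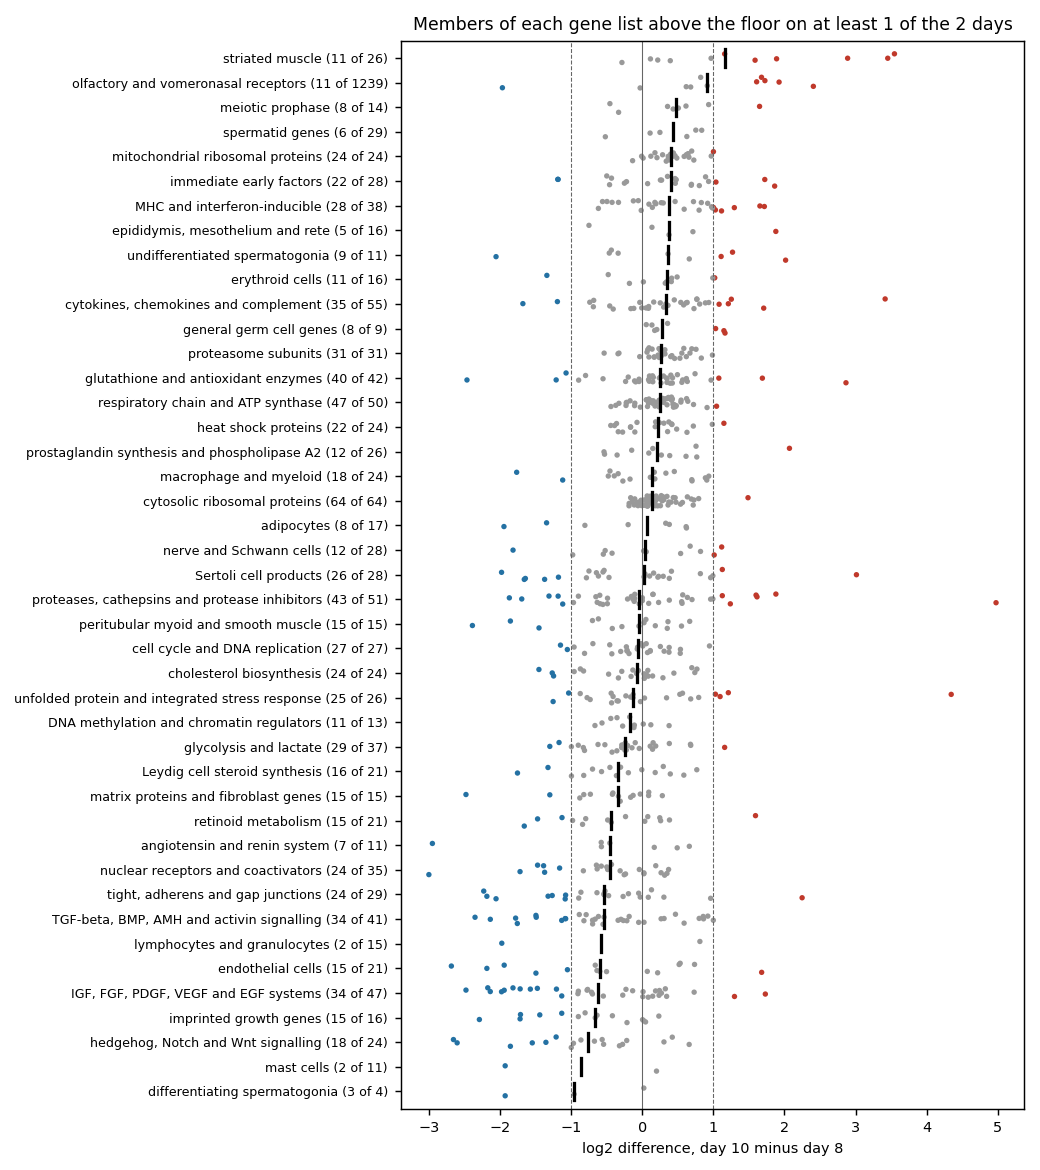
Log2 difference, day 10 minus day 8 (horizontal axis), of every tested member of each gene list; rows are lists with the number tested of the number on the array, black bars are list medians, blue and red points are members at least 2-fold lower or higher, and dashed lines mark 2-fold. Signalling, imprinted, endothelial and junction lists have medians from -0.77 to -0.54, and striated muscle has 1.16.

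In Leydig cell steroid synthesis, Star and Hsd3b1 were past 2-fold, both lower. Star, which carries cholesterol into mitochondria, had a log2 intensity of 11.78 on day 6, 11.30 on day 8 and 9.55 on day 10 (3.38-fold lower). Hsd3b1, which converts pregnenolone to progesterone, had 12.33, 12.55 and 11.23 (2.51-fold lower). Cyp17a1, which makes androgen precursors, had 14.01, 13.78 and 12.78 (1.99-fold lower, just short of the threshold). Cyp11a1, which cleaves the cholesterol side chain, differed less (10.88, 10.87 and 10.17, a difference of -0.70), and so did Hsd17b3, which makes testosterone (-0.46). Insl3, a Leydig cell peptide hormone, had 8.81, 8.90 and 9.19, a positive difference of 0.30. Of 16 tested members of the list (of 21 on the array), the calls were 2 lower and 0 higher, with a median of -0.33. The share lower, 12.5%, was near the 11.6% of all named genes. The summed intensity of the 7 fixed Leydig markers came to 29580, 26477 and 12996 on days 6, 8 and 10. That sum was set mostly by the brightest members, Cyp17a1 and Hsd3b1, and it includes Lhcgr, which was under the floor.

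Cholesterol synthesis enzymes, which feed steroid synthesis, had 3 lower and 0 higher of 24 members, all above the floor on both days. At 12.5%, the share lower was near the 11.6% of all named genes. Among the lower ones was Hmgcs1, which makes an early intermediate of the pathway (11.75, 11.74 and 10.47, 2.41-fold lower). The list as a whole was centred near 0, with a median of -0.07 that changed sign to 0.05 after median centring, 0.04 after quantile normalisation and 0.02 after cyclic loess. Idi1, Tm7sf2 and Hsd17b7, enzymes of the middle and late pathway, had positive differences of 0.77, 0.74 and 0.70.

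Sertoli cell products were split. Of 26 tested genes (of 28 on the array), the calls were 5 lower and 2 higher, and 14 had a positive difference. The list median was 0.03 and changed sign to -0.01 after quantile normalisation and to -0.03 after cyclic loess. Gata4, a transcription factor of Sertoli and Leydig cells, had 13.36, 13.68 and 12.04 (3.13-fold lower), and Fshr, the receptor of follicle-stimulating hormone, had 8.88, 9.01 and 7.83 (2.26-fold lower). Clu, an abundant secreted glycoprotein, had 13.40, 13.83 and 13.93. On the higher side, Rhox5, an androgen-dependent homeobox gene of Sertoli cells, was under the floor on days 6 and 8 (5.59 and 5.81) and reached 8.82 on day 10 (at least 2.05-fold higher). Serpina5, a protease inhibitor, had 8.33, 8.66 and 9.78 (2.18-fold higher). The summed intensity of the fixed Sertoli markers was 60344, 68392 and 53796 on days 6, 8 and 10. These markers did not share a direction between days 8 and 10. Gata4, Fshr and Amh were lower, whereas Inha and Clu differed by 0.02 and 0.10.

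The stem cell niche pairs of ligand and receptor did not share a pattern. Kit, the receptor of differentiating spermatogonia and of Leydig cells, had 9.59, 9.86 and 7.93 (3.81-fold lower on day 10 than on day 8), and its Sertoli cell ligand Kitlg had 8.46, 9.06 and 6.88 (at least 2.62-fold lower). Gdnf, the Sertoli cell factor that maintains spermatogonial stem cells, was close to the floor on day 8 (7.89) and under it on day 10 (5.91), at least 1.16-fold lower. Of its receptors on those cells, Ret had 8.41, 9.50 and 9.86, a positive difference of 0.36, and Gfra1 had 7.15, 8.08 and 7.64, a difference of -0.44 that became 0.03 with the span trend subtracted.

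All 8 tested general germ cell genes (the array held 9) reached the floor on both days and had positive differences, 3 of them at least 2-fold, with a median of 0.28. With the span trend subtracted, 1 of these calls was left, as Tex101 came to 0.95 and Tex19.1 to 0.85. Tex101, a germ cell surface glycoprotein, had 9.50, 10.38 and 11.52 (2.22-fold higher), and Tex19.1, which restrains transposons, had 11.28, 11.16 and 12.32 (2.24-fold higher). Gtsf1, a piRNA pathway protein, was 2.04-fold higher, whereas Ddx4, the helicase that marks all germ cells, had 11.17, 11.15 and 11.33. Of 9 tested genes of undifferentiated spermatogonia (11 on the array), 3 were higher and 1 lower, with a median of 0.36. The higher ones were the surface antigen Thy1 (9.56, 9.56 and 10.67, 2.16-fold), uridine phosphorylase Upp1 (8.79, 8.96 and 10.23, 2.41-fold) and the inhibitor of differentiation Id4 (6.83, 6.70 and 8.72, at least 1.91-fold). The lower one was Cdh1, E-cadherin, which other epithelia also make. Zbtb16, a further marker of these cells, was under the floor on both days. Of 4 genes of differentiating spermatogonia on the array 3 were tested, with 0 higher, 1 lower (Kit) and a median of -0.96.

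Of 14 meiotic prophase genes on the array, 8 were tested, 1 was at least 2-fold higher and 0 lower, with a median of 0.47. That gene, Syce1, a part of the synaptonemal complex, had 6.99, 7.49 and 9.14 (at least 2.55-fold higher). Of 29 spermatid genes, 6 were tested and none passed 2-fold, and 23 were under the floor on both days. The summed intensity of the 5 fixed germ cell markers came to 4284, 5528 and 6888 on days 6, 8 and 10. Those markers did not share a direction between days 8 and 10. Tex101 was 2.22-fold higher and Kit 3.81-fold lower, and Ddx4, Ret and Gfra1 differed by 0.17, 0.36 and -0.44.

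Of 24 tested junction genes (of 29 on the array), the calls were 7 lower and 1 higher, 19 had a negative difference, and the median was -0.54. Cldn1, a tight junction claudin, had 11.18, 11.20 and 8.97 (4.69-fold lower). Ocln, another tight junction protein, had 11.17, 11.48 and 10.16 (2.51-fold lower), and Cdh1 had 11.11, 10.70 and 8.64 (4.16-fold lower). Gja1, the main connexin between Sertoli cells, had 14.11, 14.29 and 13.03 (2.41-fold lower). Cldn11, the claudin of the blood-testis barrier itself, differed by -0.54. Gjb2, a connexin, went the other way and was above the floor on day 10 only (5.78, 6.33 and 8.58, at least 1.73-fold higher).

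**Figure D4:**
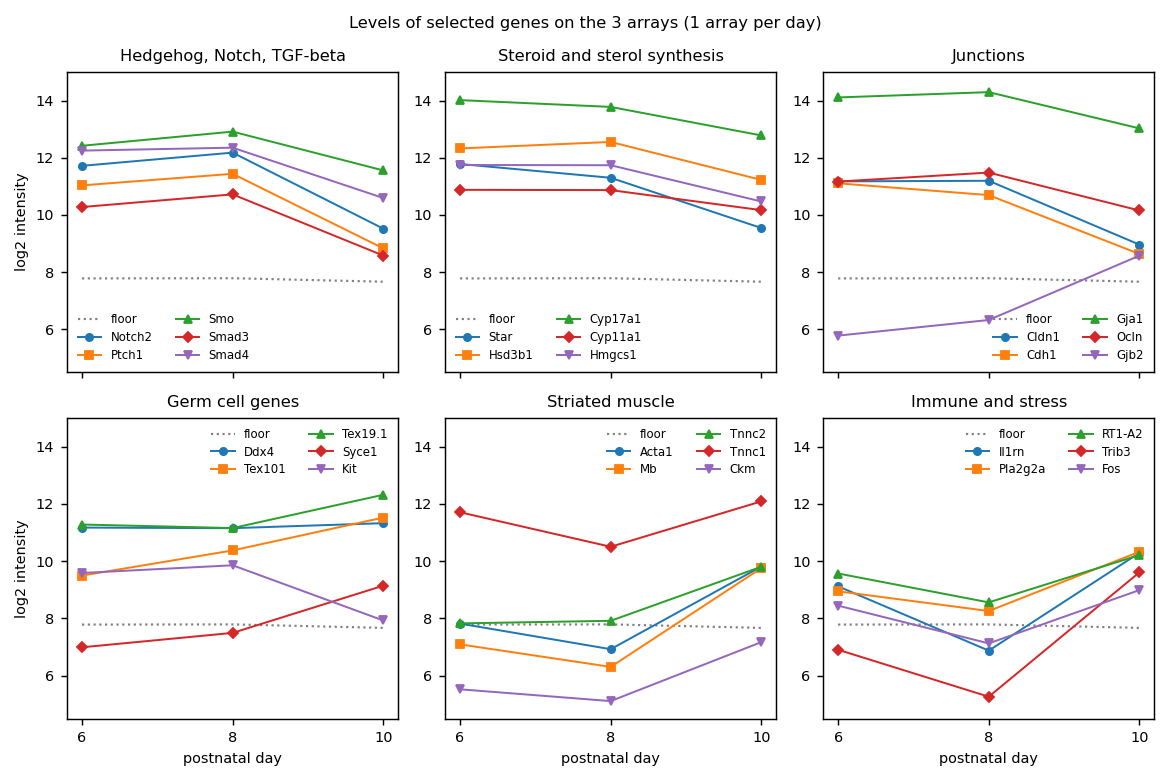
Log2 intensity (vertical axis) on postnatal days 6, 8 and 10 (horizontal axis) for selected genes of 6 groups, 1 array per day, with the floor dotted. Signalling, steroid and most junction genes differ little between days 6 and 8 and are lower on day 10, whereas the striated muscle genes and Il1rn, Trib3 and Fos are lowest on day 8 or level before a higher day 10; the lines join arrays of different animals.

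Imprinted growth genes, which act on fetal and early postnatal growth, held 5 lower and 0 higher of 15 tested members (16 on the array), with a median of -0.66. Plagl1, a zinc finger factor of this network, had 13.57, 13.35 and 11.05 (4.89-fold lower). Mest had 12.31, 11.88 and 10.17 (3.28-fold lower), and the amino acid transporter Slc38a4 had 10.12, 9.63 and 7.91 (3.29-fold lower). In these genes day 6 was the highest array and day 10 the lowest. Igf2, the growth factor, followed the same order with 9.28, 8.57 and 7.43 (at least 1.86-fold lower).

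Of 15 matrix and fibroblast genes, all on the array tested, 2 were at least 2-fold lower and 0 higher, with 12 negative differences and a median of -0.34. That share, 13.3%, was near the 11.6% of all named genes. Fbn1, which forms microfibrils, had 13.82, 13.83 and 12.53 (2.46-fold lower), while the fibrillar collagens Col1a2 and Col3a1 differed by -0.03 and 0.09. Among proteases and their inhibitors, 5 were lower and 6 higher of 43 tested (51 on the array), with a median of -0.04 that became 0.08 after median centring. The share lower was 11.6%, as among all named genes, and the share higher 14.0%, against 4.19%. Over the 39 above the floor on both days 4 were lower and 3 higher. The lower ones included matrix enzymes, Mmp2 (13.73, 13.39 and 12.08, 2.48-fold) and its activator Mmp14 (13.82, 13.88 and 12.76, 2.17-fold), and the inhibitor Timp3 (12.40, 12.73 and 11.03, 3.24-fold). The higher ones included the serpins Serpina12 and Serpina5.

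Of 15 tested endothelial genes (of 21 on the array), the calls were 5 lower and 1 higher, with a median of -0.60. Over the 12 above the floor on both days, 2 were lower and 1 higher, with a median of -0.22. Gja5, an arterial connexin, had 10.83, 9.80 and 7.62 (at least 4.39-fold lower), and Ednrb, an endothelin receptor, 9.10, 9.60 and 6.91 (at least 3.81-fold lower). Pecam1, the general endothelial marker, had 10.44, 10.17 and 9.51 (1.58-fold lower), and the summed intensity of Pecam1 and Kdr, the fixed endothelial markers on the array, was 1658, 1607 and 847. On day 10 that sum includes Kdr at a level under the floor. Vcam1, an adhesion molecule induced by cytokines and made by other cells too, had 8.95, 8.62 and 10.29 (3.20-fold higher). Contractile genes of peritubular and smooth muscle had a median of -0.05, which became 0.07 after median centring, with 3 lower and 0 higher of 15. Acta2, smooth muscle actin, had 15.31, 15.03 and 15.08, and Cald1, an actin-binding regulator, 11.48, 11.58 and 10.13 (2.74-fold lower).

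Of 28 tested histocompatibility and interferon-inducible genes (of 38 on the array), the calls were 6 higher and 0 lower, with a median of 0.38, and over the 24 above the floor on both days 4 were higher. RT1-A2, a class I gene, had 9.57, 8.56 and 10.21 (3.15-fold higher), and RT1-Da, a class II gene, 11.17, 10.80 and 11.82 (2.04-fold higher). The interferon-inducible Ifi27l2b was stepwise higher, with 7.61, 8.30 and 10.02 (3.29-fold higher). Class I genes are near-identical copies whose probes may share signal, so RT1-A2, RT1-CE5 and RT1-CE7 cannot be counted as separate readings. The interferon-pathway transcription factors Stat2 and Irf1 had negative differences (-0.62 and -0.56), and B2m, the light chain of class I, -0.42.

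Cytokines, chemokines and complement held 5 higher and 2 lower of 35 tested members (55 on the array), with a median of 0.33. Over the 29 above the floor on both days 3 were higher and 0 lower. Beside Il1rn, the cytokine Il18 had 8.41, 7.92 and 9.17 (2.38-fold higher), and the monocyte chemokine Ccl7 9.98, 8.81 and 10.02 (2.31-fold higher), a level close to day 6. Cx3cl1, a membrane-bound chemokine, had 8.95, 9.22 and 7.54 (at least 2.94-fold lower). Macrophage genes held 0 higher and 2 lower of 18 tested (24 on the array). This share lower, 11.1%, was near the 11.6% of all named genes. The 2 lower macrophage genes were Mpeg1 (-1.77) and Cybb (-1.12). The list median was 0.14 and changed sign to -0.20 with no floor. Of 2 tested lymphocyte and granulocyte genes 1 was lower. Cd68, a lysosomal protein of macrophages, had 11.48, 11.95 and 11.78, and the summed intensity of the fixed macrophage markers was 6396, 7469 and 7621 on days 6, 8 and 10. The 3 chains of complement C1q, which macrophages make, had positive differences of 0.94 (C1qa), 0.89 (C1qb) and 0.33 (C1qc).

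Stress genes did not share a direction. Of 25 tested genes of the unfolded protein and integrated stress responses (of 26 on the array), the calls were 4 higher and 2 lower, with a median of -0.13. The higher ones were Trib3, the apoptosis-linked factor Ddit3 (8.97, 9.50 and 10.60, 2.14-fold), Atf5 (11.80, 11.41 and 12.43, 2.04-fold) and Cebpb (9.86, 8.72 and 9.93, 2.31-fold), all transcriptional regulators or, for Trib3, a partner of them. The lower ones were the endoplasmic reticulum chaperone Canx (14.05, 13.72 and 12.68, 2.05-fold) and Sel1l, of the degradation machinery (11.94, 11.93 and 10.67, 2.39-fold). With the span trend subtracted, 1 higher and 0 lower of these calls were left, and Canx was also short of 2-fold after median centring (-0.91). Atf4, which lies upstream of the former set, had 14.50, 14.17 and 14.51. Of 22 heat shock genes, 1 was higher and 0 lower (median 0.21). It was Hspb2, a small heat shock protein of muscle, with 10.24, 10.27 and 11.41 (2.22-fold).

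Immediate early factors, which respond to handling and stimulation of a tissue within minutes, held 3 higher and 2 lower of 22 tested members (28 on the array), with a median of 0.41. Ccn1, a matricellular protein, had 11.26, 10.12 and 11.84 (3.30-fold higher), and Fos 8.45, 7.13 and 8.99 (at least 2.29-fold higher). Both were lowest on day 8. Egr1 went the other way, stepwise lower with 14.09, 13.51 and 12.32 (2.27-fold). Of 40 tested glutathione and antioxidant genes (42 on the array), 3 were higher and 3 lower, with a median of 0.25. Each count is 7.5% of the list, against 4.19% higher and 11.6% lower among all named genes. Gsta3, a glutathione transferase, had 10.19, 9.79 and 11.48 (3.22-fold higher), and Gpx3, the secreted glutathione peroxidase, 7.89, 8.90 and 6.43 (at least 2.35-fold lower).

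Striated muscle genes had the highest median of the 43 lists. Of 26 on the array, 11 were tested, 6 were at least 2-fold higher and 0 lower, with a median of 1.16. Over the 8 above the floor on both days 3 were higher and the median was 0.68. Acta1 had 7.82, 6.92 and 9.81 on days 6, 8 and 10, Mb 7.09, 6.30 and 9.76, and Actc1, cardiac actin, 7.06, 5.71 and 9.26 (at least 2.76-fold higher). Tnnc1, the troponin C of slow and cardiac muscle, was bright on all days, with 11.71, 10.50 and 12.09 (3.00-fold higher), and Eno3, muscle enolase, had 10.82, 10.64 and 11.80 (2.23-fold higher). Day 8 was the lowest array for each of them.

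Markers of tissues outside the testis were read beside these genes. The summed intensity of 7 fixed skeletal muscle markers was 1117, 988 and 3644 on days 6, 8 and 10, and among them Ckm, Tnni2 and Myh3 were under the floor on days 8 and 10. The 4 epididymal and mesothelial markers summed to 992, 756 and 2157, with Msln above the floor and Lcn5, Crisp1 and Pax8 under it. The 5 adipose markers summed to 397, 435 and 638, with Adipoq, Fabp4, Pparg and Lep under the floor. Erythroid markers summed to 41665, 41823 and 37980 and nerve markers to 1957, 1965 and 1972. The part of attached tissue in the muscle and mesothelial values was not tested.

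Genes of the basic machinery were slightly higher as groups, and few passed 2-fold. Of 31 proteasome subunits 27 had a positive difference, 0 passed 2-fold and the median was 0.27. Of 47 tested respiratory chain and ATP synthase genes 37 had a positive difference, 1 was higher and the median was 0.25. Cox6b2, the testis form of a cytochrome oxidase subunit, was that gene, with 10.68, 10.45 and 11.50 (2.06-fold higher). Mitochondrial ribosomal proteins had 22 of 24 positive differences and a median of 0.41. Cytosolic ribosomal proteins had 51 of 64 and a median of 0.13, and this median became -0.10 with the trend on gene span subtracted. Of 27 cell cycle genes, 2 were lower (7.41%, against 11.6% of all named genes) and 0 higher, with a median of -0.07 that became 0.06 after median centring. The 2 were Ccnd3, a G1 cyclin (11.17, 12.05 and 10.90, 2.22-fold lower), and Cdk2, a G1 and S phase kinase (12.91, 13.34 and 12.29, 2.08-fold lower). Ccnd3 was short of 2-fold with the span trend subtracted (-0.71), and Cdk2 after median centring (-0.93). Glycolysis genes (29 tested of 37) had a median of -0.24. Of these, 2 were lower (6.90%) and 1 higher (3.45%), against 11.6% and 4.19% of all named genes.

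Genes with long genomic spans, introns included, were more on the lower side and genes with short spans more on the higher side. Over 5488 named genes, Spearman's rho between difference and span was -0.36, a relation across genes, which are not independent replicates. The median span was 9.20 kb for the higher genes, 46.3 kb for the lower genes and 20.0 kb for all tested. Split into 10 equal groups by span, the group of shortest genes (median 2.60 kb) had 11.7% past 2-fold on the higher side and 2.55% on the lower. The group of longest genes (median 152 kb) had 0.911% on the higher side and 25.5% on the lower. With the trend subtracted, 244 named genes were higher and 463 lower, and 169 of the 230 and 440 of the 638 calls remained.

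**Figure D5:**
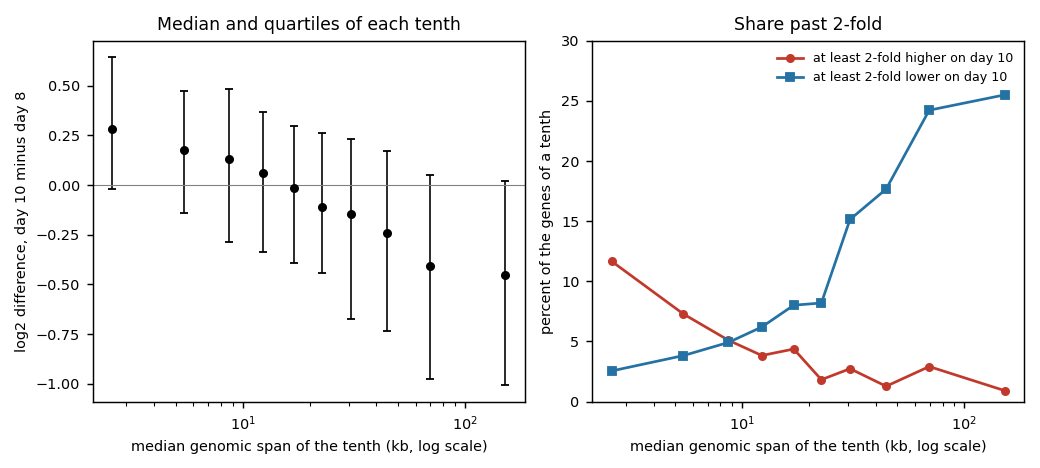
Named genes in 10 equal groups by genomic span (horizontal axis, kb, log scale): the left panel gives the median log2 difference, day 10 minus day 8, with bars from the lower to the upper quartile of genes, and the right panel the percent of genes at least 2-fold higher or lower. The median goes from 0.28 in the shortest group to -0.45 in the longest, and the share of lower genes from 2.55% to 25.5%.

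Among the lists, medians kept their sign with the trend subtracted for hedgehog, Notch and Wnt (-0.77), TGF-beta (-0.43), junctions (-0.40), imprinted genes (-0.48) and striated muscle (1.03). The medians shrank from -0.62 to -0.28 for growth factor systems, from -0.60 to -0.31 for endothelial genes and from 0.41 to 0.13 for immediate early factors. For Sertoli cell products the median went from 0.03 to -0.19. Agtr2 and Star, with spans of 4.18 and 4.62 kb, had subtracted differences of -3.15 and -1.94, larger than as measured, and Ncoa2 and Notch2, with 234 and 133 kb, had -2.53 and -2.19, smaller than as measured. The share of calls also followed the level of the probe set. Split into 5 equal groups by mean level, the dimmest had 18.8% higher and 26.1% lower, and the brightest 2.03% and 3.27%. Predicted transcripts (8297 tested, nearly all without a name here) were higher in 11.5% and lower in 15.1%, against 4.37% and 11.9% of 5761 curated ones.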

How the data were processed

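Total RNA of testes was labelled with Cy3 and hybridised to 1-colour NimbleGen arrays, 1 array per day, per the labels' protocols. The authors deposited 1 intensity per RefSeq accession on a linear scale, made with RMA per the submitters' processing notes (version: not given in the sources used here). That method aligns the distributions between arrays, so a shift common to most genes may not show in full. The deposited log2 medians still differed, at 7.79 on day 8 and 7.67 on day 10. Intensities ran from 12.9 to 51331 on day 8 and from 13.8 to 54219 on day 10, and the random-sequence control gave 24.6 and 25.6. The deposited series table held the same values. Across the 26419 probe sets Pearson's r of log2 intensity was 0.966 between days 10 and 8.

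From the deposited intensities log2 values were computed with no further scaling. Accessions without version were matched to RefSeq's gene table of GRCr8 for names and spans (9747 probe sets named, 16672 unnamed, which are not without a gene). Probe sets of 1 symbol were averaged. A level counted when at or above the floor, the higher of the array's median and the receptors' 95th percentile, on at least 1 of the 2 days. The call was 2-fold on the difference as measured, and 2-fold is the threshold in the submitters' design text. A fold against a level under the floor is a bound. The span trend was a lowess fit on log10 span (fraction 0.3, 3 iterations). Alternatives were other scalings (median, quantile and cyclic loess), floors, folds, gene sets and span subtraction. Python 3.11.15, pandas 2.3.3, statsmodels 0.14.6, R 4.3.3 and limma 3.58.1 (normalisation only) were used, and the counting was tested on simulated data.

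The comparison, its 43 gene lists and the naming rule were chosen with earlier results of these data known. The rule took the 15 largest differences each way after raising values to the floor, up to 2 members per list and direction, and 28 reference genes (25 matched; Sox9, Dazl and Myh11 were not). Cell type markers were named as a fixed set. Members named beyond the rule, after their values were seen, were Ace, Actc1, Agtr1a, Aldh1a2, Apc, Atf4, Atf5, B2m, C1qa, C1qb, C1qc, Ccl7, Cldn11, Col1a2, Col3a1, Ddit3, Gdnf, Gtsf1, Hes1, Hsd17b3, Hsd17b7, Id1, Id2, Id4, Idi1, Irf1, Mest, Mmp2, Mmp14, Ocln, RT1-CE5, RT1-Da, Smo, Stat2, Tgfbr1, Tgfbr3, Tm7sf2, Tnnc1 and Wnt5a. The day 8 array also serves the comparison of day 8 with day 6, so the 2 comparisons are not independent. Some genes are not reported here.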

Additional observations from a re-analysis of the deposited data

How the results depend on the processing

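The counts depended on the scaling, the floor and the fold, and the excess of lower probe sets did not reverse under any alternative run. As deposited, 1203 probe sets lay past 2-fold on the higher side and 1936 on the lower (61.7%). The share lower was 51.5% after median centring, 54.7% after quantile normalisation and 56.5% after cyclic loess. With no floor, 2009 were higher and 56.4% were lower, and with the floor at the receptors' 95th percentile 58.8% were lower. With values raised to the floor, 857 were higher and 1590 lower (65.0%). Above the floor on both arrays, 713 were higher and 65.0% lower. Over named genes 230 were higher and 638 lower (73.5%), and over curated accessions 252 and 683 (73.0%). At 1.5-fold 2679 were higher and 3488 lower (56.6%), and at 3-fold 433 and 730. With the span trend subtracted, 244 named genes were higher and 463 lower (65.5%). Averaging probe sets per gene and reading the deposited series table kept all counts within 1.5 times. Of 107 genes named by the rule and past 2-fold, 104 stayed past it in the same direction after median centring, 107 after quantile normalisation, 107 after cyclic loess and 89 with the span trend subtracted. The rule mostly picked large differences and median centring moved each by only 0.12, so this was largely set by the choice. Of all named genes past 2-fold, 169 of 230 higher and 440 of 638 lower stayed with the span trend subtracted. None of the 107 changed direction, whereas Gfra1, Insl3, Inha and Acta2, all short of 2-fold, changed sign under at least 1 of these. The causes of these shifts were not tested. Where 62 genes had several probe sets, the SD of their differences was 0.24 (median) and 0.43 (pooled), which says nothing of the spread between animals. The number of arrays limits the precision, and levels under the floor give bounds only. No paired analysis was possible because each day has 1 array, and leaving out a replicate was likewise not possible.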

Other observations

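Further gene groups are given here by their counts. Of 17 adipocyte genes on the array 8 were tested, and the 2 past 2-fold were lower. Acaca, the first enzyme of fatty acid synthesis, had a log2 intensity of 9.63 on day 6, 10.09 on day 8 and 8.14 on day 10 (3.85-fold lower on day 10 than on day 8), and Lpl, lipoprotein lipase, had 8.29, 8.34 and 6.99 (at least 1.59-fold lower). Of 28 nerve and Schwann cell genes 12 were tested, with Prph (at least 1.12-fold) and Prx (at least 1.31-fold) higher and the neurotrophin receptor Ngfr (at least 1.23-fold) lower, all of them close to the floor. Of 11 tested erythroid genes the blood group protein Rhd had 7.88, 8.11 and 9.13 (2.03-fold higher) and the anion exchanger Slc4a1 8.47, 8.50 and 7.16 (at least 1.78-fold lower). In the macrophage list the perforin-like Mpeg1 had 10.47, 10.58 and 8.81 (3.40-fold lower), and Cybb, of the oxidase, was at least 1.73-fold lower. Of 15 lymphocyte and granulocyte genes 2 were tested and Cd4 was at least 1.76-fold lower, and of 11 mast cell genes 2 were tested, Kit among them. Of 11 tested DNA methylation and chromatin genes 0 passed 2-fold, and Cbx3, a heterochromatin protein, had the largest difference (-0.67). The prostaglandin and phospholipase list had 1 higher member of 12 tested, Pla2g2a, and 0 lower. Of 1239 receptors of smell and pheromones 11 were tested, 5 were higher (45.5%, against 4.19% of all named genes) and 1 lower. Their median was 0.91, against 1.16 for striated muscle. Of these 11, 7 were above the floor on day 10 only and so entered through their brighter day. Among the 3 above the floor on both days 0 passed 2-fold, and over all 1239 the median difference was 0.07.

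Single genes outside the lists were picked after their values were seen. Tnnt2, cardiac troponin T, was level on days 6 and 8 (10.94 and 10.92) and had 12.58 on day 10 (3.16-fold higher). Slc1a5, a glutamine carrier, had 9.53, 9.46 and 11.11 (3.15-fold higher). Lat, an adaptor of T cell receptor signalling, had 8.04, 7.88 and 9.55 (3.18-fold higher). On the lower side, the kinase Hipk3 had 11.76, 11.34 and 9.06 (4.86-fold lower). Scd2, which desaturates fatty acids, had 12.18, 12.47 and 10.38 (4.23-fold lower) and Gpc1, a heparan sulphate proteoglycan, 11.52, 12.11 and 10.03 (4.22-fold lower). Ghr, the growth hormone receptor, had 9.88 and 9.74 on the earlier days and was under the floor on day 10 (at least 4.19-fold lower), and Utrn, utrophin, which has a span of 503 kb, had 10.71, 10.80 and 8.73 (4.19-fold lower).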
